A study of Homo sapiens with 18 samples.

Results

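The genes described here are 9 transcription factors of the myeloid lineage, SPI1, CEBPA, CEBPB, CEBPD, CEBPE, IRF8, NFE2, GFI1 and RUNX1. They were taken by symbol from an expression table of 60658 human gene IDs. Each symbol matched 1 row, and all 9 passed the filter on low values that left 17555 genes for testing. B11 is a clone of THP1, a human acute myeloid leukaemia line, and it was studied on 9 plates, 3 each without doxycycline (0 ug/ml) and with 1 or 10 ug/ml for 5 days. Per the labels, B11 carries a lentiviral, doxycycline-inducible NRAS with a G12V mutation, GFP and resistance to CRISPR cutting. It also received Cas9, a puromycin resistance gene and dual guide RNAs aimed around the start codon of the cell's own NRAS, and it is labelled heterozygous NRAS-G12V. THP1, labelled heterozygous NRAS-G12D, was studied on 9 plates at the same doses, and its labels name no vector. All 18 plates were grown in the same medium with 10% fetal bovine serum. B11 is 1 subclone grown out and split into plates, and THP1 was split in the same way, so p-values reflect nothing beyond plate-to-plate spread, and clone, editing, vectors and selection cannot be told apart between the lines.

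Myeloid transcription factors act in combinations. PU.1, the protein of SPI1, opens enhancers of myeloid genes and binds them together with C/EBP factors, RUNX1 and, at composite sites, IRF8. The C/EBP proteins share a basic leucine zipper and a recognition motif, and their relative amounts are known to shift between progenitors, granulocytes and macrophages. IRF8 favours monocytes and dendritic cells over granulocytes, and GFI1, a zinc-finger repressor, favours granulocytes. NFE2 is best known from red cell and platelet precursors, where it pairs with small MAF proteins, and it is also expressed in myeloid cells.

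The unit throughout is FPKM (fragments per kilobase of transcript, adjusted for depth), with 1 library per plate and 3 libraries (A, B and C) per group. A change is a difference of log2(FPKM + 1) with its standard error (SE), and calls are at an adjusted p under 0.05 from a limma model of all 17555 genes. Depth estimated from the values was 10.6 to 15.4 M fragments per library, and the replicates correlated across genes at r of 0.938 to 0.958. B11 libraries B and C at 1 ug/ml stood apart, because an ID without a gene name took 6.51% and 3.76% of their FPKM sums. NRAS averaged 20.9 ± 1.09, 23.8 ± 0.579 and 27.96 ± 0.219 FPKM in B11 at 0, 1 and 10 ug/ml, and 23.3 ± 0.348, 23.4 ± 1.97 and 24.2 ± 0.505 FPKM in THP1 (SD, n = 3 each). These values sum whatever transgene and edited gene reads were assigned to NRAS. All 10 markers of monocytic and myeloid cells reached 1 FPKM in at least 1 library. Their summed level was 4160 to 5388 FPKM in B11 at 0 ug/ml, 1535 to 1597 FPKM at 1 ug/ml and 1188 to 1298 FPKM at 10 ug/ml, and 1297 to 1710 FPKM in THP1. This sum thus moved with dose in B11 along with several of the factors, and its part in their values was not tested. LYZ and CD68 were its largest terms in every group. In B11, PTPRC, CD33, CD4, LYZ, CD68 and CSF1R averaged lower at 1 and 10 ug/ml than at 0 ug/ml. ITGAM (3.37, 27.85 and 11.3 FPKM at 0, 1 and 10 ug/ml), FCGR1A (21.4, 68.7 and 48.8 FPKM) and CD14 (0.841, 6.03 and 0.976 FPKM) averaged higher. ITGAX went both ways (39.6, 49.9 and 35.9 FPKM). Untreated B11 had higher means than untreated THP1 for LYZ (2781 against 731 FPKM) and CD68 (1400 against 308 FPKM), and a lower one for CD14 (0.841 against 11.3 FPKM).

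The 9 factors spanned a wide range of levels per length. IRF8 was the highest in every group, with group means of 447 to 1006 FPKM, followed by SPI1 at 209 to 291 FPKM and CEBPA at 136 to 206 FPKM. GFI1 lay between 101 and 118 FPKM, while CEBPD, RUNX1, NFE2 and CEBPB had group means between 4.24 and 80.6 FPKM. CEBPE was the lowest in all groups, with 2.31 to 8.50 FPKM, which corresponds to an estimated 38 to 240 fragments per library. The group means of NFE2 differed most, 19.0-fold between its highest and lowest group, against 1.17-fold for GFI1, which differed least.

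**Figure D1:**
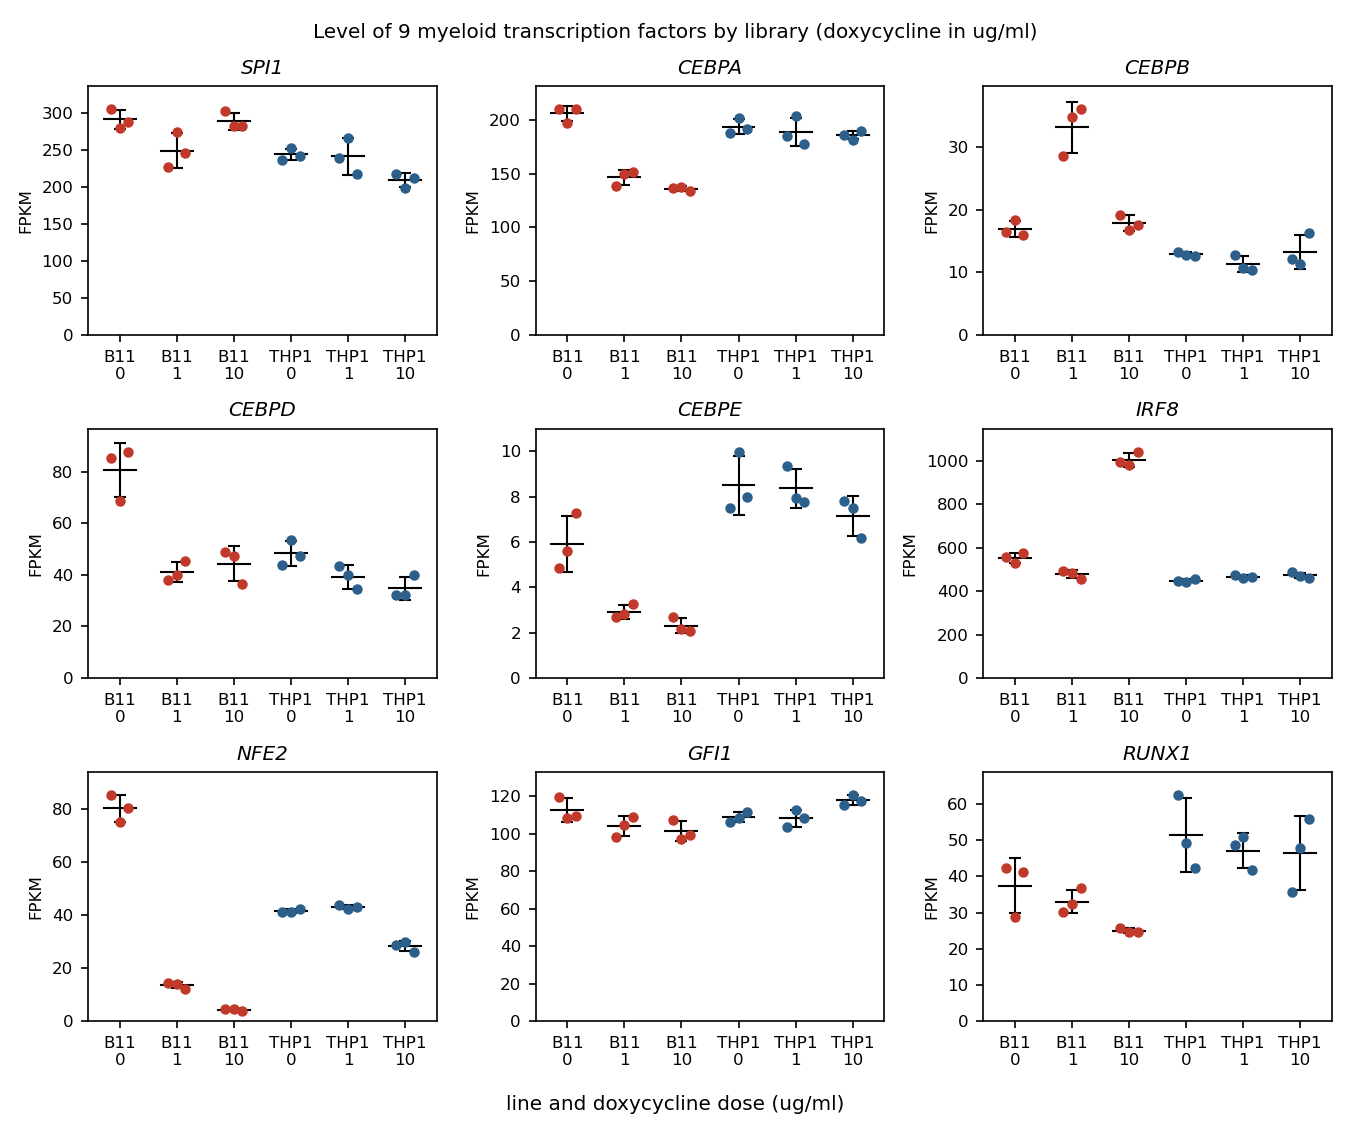
Level of each of the 9 factors in every library (FPKM, vertical axes from 0, 1 panel per gene), with B11 in red left of THP1 in blue and doses in ug/ml on the horizontal axis. Points are libraries, long lines group means and error bars SDs of 3 libraries. By the ratio of highest to lowest group mean, NFE2 differs most, with libraries between 3.71 and 85.6 FPKM in B11, and GFI1 differs least.

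At 10 ug/ml against 0 ug/ml in B11, 5 of the 9 factors fell, 1 rose and 3 were not called. Over all genes tested 42.8% were called in this comparison, 21.6% higher and 21.3% lower. The count of 6 of 9 was not tested against these shares. NFE2, CEBPE, CEBPD, CEBPA and RUNX1 fell and IRF8 rose, while SPI1, CEBPB and GFI1 were not called. At 1 against 0 ug/ml in B11, 7 of 9 were called, with 37.1% of all genes called, 19.8% higher and 17.3% lower. There CEBPB rose, and NFE2, CEBPD, CEBPE, CEBPA, SPI1 and IRF8 fell. Between 10 and 1 ug/ml in B11, 3 of 9 were called against 12.8% of all genes, 5.69% higher and 7.12% lower. There IRF8 rose, and NFE2 and CEBPB fell. The 3 comparisons share libraries among them, and in bulk RNA fewer cells of a type and less RNA per cell cannot be told apart.

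In THP1 the same doses moved few of the factors. At 10 against 0 ug/ml NFE2 alone was called, and fell, with 1.02% of all genes called, 0.0968% higher and 0.923% lower. There 3 of the 9, NFE2, CEBPD and SPI1, had an unadjusted limma p under 0.05, each with a fall. At 10 against 1 ug/ml NFE2 alone was called, and fell again, with 0.296% of all genes called and 0.245% called lower. Here 2 of the 9, NFE2 and SPI1, had an unadjusted limma p under 0.05. At 1 against 0 ug/ml limma called 0 of the 9, with 0.0114% of all genes called, and 1 of the 9, CEBPD, had an unadjusted p under 0.05. THP1 at the same doses measures the response to doxycycline without the inducible NRAS, and also without the cloning, editing and selection of B11. A difference between the responses of the lines cannot tell these apart. The responses of the lines were also compared directly, as the response of B11 minus the response of THP1. This difference passed the test for 5 of 9 factors at 10 against 0 ug/ml (29.8% of all genes), 6 of 9 at 1 against 0 ug/ml (25.9%) and 4 of 9 at 10 against 1 ug/ml (4.64%). Between the lines at equal dose, 7 of 9 were called at 0 ug/ml (47.1% of all genes, 23.5% higher and 23.6% lower), 5 of 9 at 1 ug/ml (29.8%) and 8 of 9 at 10 ug/ml (32.4%). With TPM scaling the count at 0 ug/ml was 5 of 9, and 40% of all genes called there were higher.

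**Figure D2:**
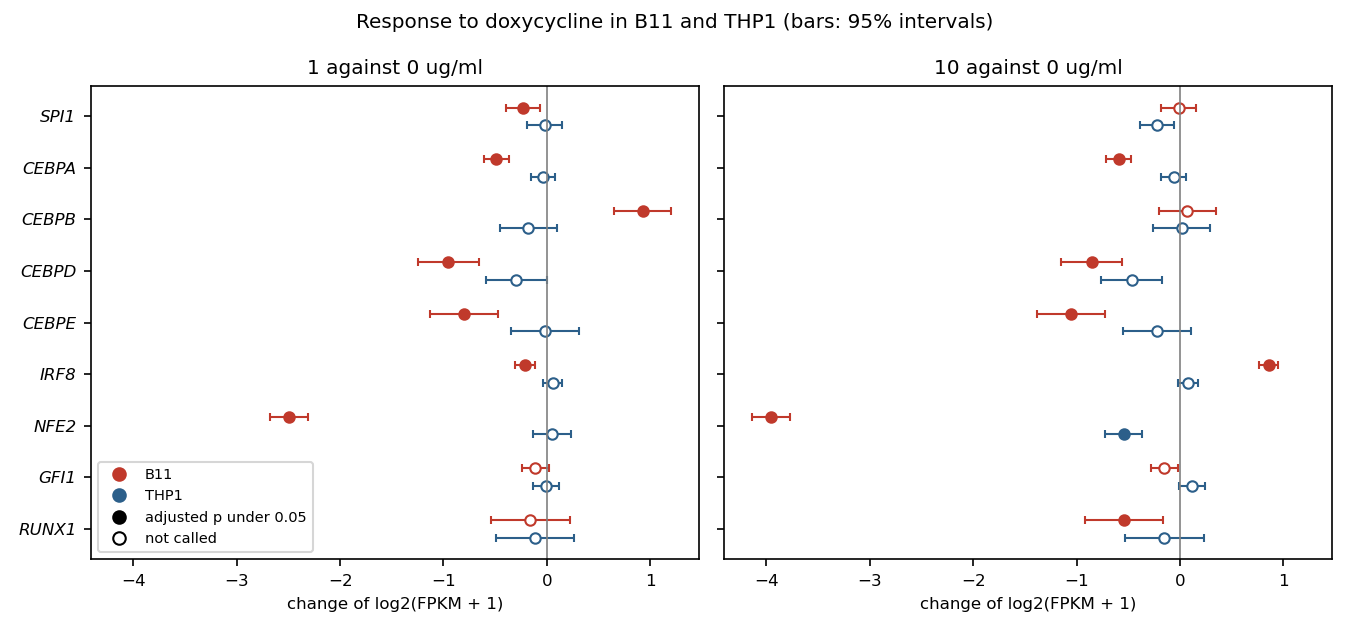
Change in log2(FPKM + 1) of each factor at 1 against 0 ug/ml doxycycline (left) and 10 against 0 ug/ml (right), with B11 in red above THP1 in blue, on the same horizontal scale. Bars are 95% intervals of the limma fit, and filled points had an adjusted p under 0.05. NFE2 in B11 lies farthest from 0, at -2.49 and -3.96, and in THP1 it is the sole filled point.

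SPI1 encodes PU.1, the ETS factor without which monocytes and granulocytes do not form, and it lies at chr11:47354860-47378576 (GRCh38, minus strand, ENSG00000066336). Libraries A, B and C of B11 had 305, 279 and 288 FPKM at 0 ug/ml, 227, 274 and 246 FPKM at 1 ug/ml, and 302, 282 and 282 FPKM at 10 ug/ml. Those of THP1 had 237, 252 and 242 FPKM at 0 ug/ml, 239, 266 and 217 FPKM at 1 ug/ml, and 217, 198 and 212 FPKM at 10 ug/ml. By group means, SPI1 was a little lower in B11 at 1 ug/ml than at either other B11 dose. It was lowest in THP1 at 10 ug/ml, whose libraries overlapped with no THP1 library at 0 ug/ml. Neither the B11 change at 10 against 1 ug/ml (0.22, adjusted p = 0.0863) nor the THP1 change at 10 against 0 ug/ml (-0.22, adjusted p = 0.282) was called. In B11 the change at 10 against 0 ug/ml was -0.01 (SE 0.08, 95% interval -0.18 to 0.15, adjusted p = 0.927). At 1 against 0 ug/ml SPI1 fell by 0.23 (SE 0.08, adjusted p = 0.0318), a call that did not hold in 8 of 16 alternatives, for example with TPM scaling (adjusted p = 0.12). SPI1 was higher in B11 than in THP1 at 10 ug/ml, by 0.46 (SE 0.08, adjusted p = 0.000323), and at 0 ug/ml, by 0.25 (SE 0.08, adjusted p = 0.0143). The difference at 0 ug/ml was 0.12 and not called with TPM scaling (adjusted p = 0.21), and it was also lost without B11 A at 0 ug/ml (adjusted p = 0.0579). At 10 against 1 ug/ml the responses of the lines differed by 0.42 (SE 0.11, adjusted p = 0.0444), a call that 15 of 22 alternatives did not keep.

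CEBPA, needed for granulocyte and monocyte progenitors to form and frequently mutated in acute myeloid leukaemia, is an intronless gene at chr19:33299934-33302564 (minus strand, ENSG00000245848). In B11 its libraries had 211, 197 and 210 FPKM at 0 ug/ml, 138, 150 and 151 FPKM at 1 ug/ml, and 137, 138 and 134 FPKM at 10 ug/ml. In THP1 they had 188, 201 and 192 FPKM, 185, 204 and 178 FPKM, and 186, 182 and 189 FPKM at 0, 1 and 10 ug/ml. Every treated B11 library lay below every other library of the series, and the 9 THP1 libraries overlapped between doses. CEBPA fell by 0.49 (SE 0.06, adjusted p = 6.44e-06) at 1 ug/ml and by 0.59 (SE 0.06, adjusted p = 6.75e-07) at 10 ug/ml against 0 ug/ml in B11. The change between 10 and 1 ug/ml was -0.10 (95% interval -0.22 to 0.02) and was not called. In THP1 the change at 10 against 0 ug/ml was -0.06 (95% interval -0.18 to 0.06), and the difference between the responses of the lines was -0.53 (SE 0.08, adjusted p = 0.000128). CEBPA was lower in B11 than in THP1 at 1 ug/ml (difference -0.36, adjusted p = 0.000176) and 10 ug/ml (-0.44, adjusted p = 2.37e-05), and at 0 ug/ml the difference was 0.09 (95% interval -0.03 to 0.21). The antisense genes AC008738.3 and AC008738.5 share 659 and 482 exonic bases with CEBPA. CEBPA has 2631 exonic bases in all. Reads within the shared bases cannot be assigned to either strand, since strandedness was not given in the sources used here. AC008738.3 averaged 287, 137 and 154 FPKM in B11 and 226, 238 and 260 FPKM in THP1 at 0, 1 and 10 ug/ml, and AC008738.5 40.6 to 54.8 FPKM over all groups.

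CEBPB, a C/EBP factor of macrophage genes and of granulocyte production under stress, behaved otherwise. It is an intronless gene at chr20:50190734-50192689 (plus strand, ENSG00000172216). Its B11 libraries had 16.4, 18.4 and 15.9 FPKM at 0 ug/ml, 28.5, 34.8 and 36.1 FPKM at 1 ug/ml, and 19.2, 16.7 and 17.5 FPKM at 10 ug/ml. THP1 libraries had 13.3, 12.8 and 12.6 FPKM, 12.8, 10.8 and 10.4 FPKM, and 12.2, 11.3 and 16.3 FPKM at 0, 1 and 10 ug/ml. The 3 B11 libraries at 1 ug/ml were the highest of the series, and those at 0 and 10 ug/ml overlapped. In B11 at 1 ug/ml CEBPB rose by 0.93 against 0 ug/ml (SE 0.13, adjusted p = 4.28e-05), and at 10 ug/ml it fell by 0.86 against 1 ug/ml (SE 0.13, adjusted p = 0.000505). The change at 10 against 0 ug/ml was 0.07 (95% interval -0.20 to 0.35). Without the B11 libraries B and C at 1 ug/ml, the rise was still called, and the fall between 10 and 1 ug/ml was 0.65 in size and not called (adjusted p = 0.073), with a single library left at 1 ug/ml. The response to 1 ug/ml exceeded that of THP1 by 1.11 (SE 0.18, adjusted p = 0.000372). CEBPB was higher in B11 than in THP1 at 1 ug/ml by 1.47 (SE 0.13, adjusted p = 8.93e-07), where 399 of 17555 genes differed further in this direction. The differences of 0.36 at 0 ug/ml (adjusted p = 0.0318) and 0.41 at 10 ug/ml (adjusted p = 0.023) were lost with TPM scaling (adjusted p = 0.197 and 0.0756) and without any of several single libraries (adjusted p up to 0.108 and 0.104). CEBPB-AS1, on the other strand over 231 exonic bases, reached at most 0.664 FPKM in any library.

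CEBPD, a C/EBP factor induced in inflammation and the acute phase response, is at chr8:47736909-47739086 (minus strand, ENSG00000221869). It had 85.4, 68.8 and 87.7 FPKM in B11 at 0 ug/ml, 37.9, 39.9 and 45.3 FPKM at 1 ug/ml, and 49.0, 47.3 and 36.5 FPKM at 10 ug/ml. In THP1 it had 44.0, 53.6 and 47.3 FPKM at 0 ug/ml, 43.3, 39.8 and 34.3 FPKM at 1 ug/ml, and 32.3, 31.98 and 39.9 FPKM at 10 ug/ml. The 3 untreated B11 libraries stood above all the other 15, and treated B11 overlapped with THP1. Against 0 ug/ml, CEBPD in B11 fell by 0.95 (adjusted p = 6.02e-05) and by 0.85 (adjusted p = 0.000135), at 1 and 10 ug/ml (SE 0.14 each). In THP1 the same changes were -0.30 and -0.47 (SE 0.14 each) and were not called (adjusted p = 0.915 and 0.16). The difference between the lines' responses passed at 1 ug/ml, at -0.66 (SE 0.19, adjusted p = 0.0215), and not at 10 ug/ml, at -0.39 (95% interval -0.80 to 0.03, adjusted p = 0.154). The call at 1 ug/ml was lost when any of 4 single libraries was left out, THP1 A at 0 or 1 ug/ml, B11 C at 0 ug/ml or B11 A at 1 ug/ml, with adjusted p between 0.0524 and 0.0552. Untreated B11 was above untreated THP1 by 0.72 (SE 0.14, adjusted p = 0.000489), while at 1 ug/ml the difference was 0.07 (95% interval -0.23 to 0.36). At 10 ug/ml the difference was 0.34 (95% interval 0.04 to 0.63) and was not called (adjusted p = 0.0765), but 2 of 16 alternatives called it.

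CEBPE drives the late, secondary granule genes of granulocytes, and lies at chr14:23117304-23119616 (minus strand, ENSG00000092067). B11 libraries held 4.87, 5.58 and 7.28 FPKM at 0 ug/ml, 2.68, 2.82 and 3.28 FPKM at 1 ug/ml, and 2.68, 2.17 and 2.08 FPKM at 10 ug/ml. THP1 libraries held 7.495, 9.99 and 8.01 FPKM, 9.35, 7.96 and 7.77 FPKM, and 7.80, 7.48 and 6.16 FPKM at 0, 1 and 10 ug/ml. All treated B11 libraries were below all untreated ones, and the THP1 doses overlapped. CEBPE fell in B11 by 0.80 (SE 0.15, adjusted p = 0.000707) at 1 ug/ml and by 1.05 (SE 0.15, adjusted p = 5.5e-05) at 10 ug/ml against 0 ug/ml. It was lower in B11 than in THP1 at every dose, with differences of -0.46 (adjusted p = 0.0215), -1.25 (adjusted p = 2.16e-05) and -1.30 (adjusted p = 1.29e-05) at 0, 1 and 10 ug/ml (SE 0.15 each). The call at 0 ug/ml was lost with only those 2 groups in the fit (adjusted p = 0.102) and without B11 A, B11 B or THP1 B at 0 ug/ml (adjusted p between 0.0597 and 0.104). The summed level of 6 neutrophil markers, of which CEACAM8 was at 0 in all libraries and CAMP alone reached 1 FPKM, was 0.761 to 1.48, 0.570 to 1.09 and 0.136 to 0.549 FPKM in B11 at 0, 1 and 10 ug/ml. In THP1 it was 1.58 to 2.10, 1.32 to 2.91 and 1.17 to 2.74 FPKM, and its part in the CEBPE values was not tested.

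The promoters of the C/EBP genes that moved in opposite directions at 1 ug/ml are shown for comparison, from 250 bases before to 50 bases after the start site, as given by RefSeq on GRCh38.p14. RefSeq windows were at hand for 6 of the 9 factors and matched by symbol. CEBPD, which also fell in B11 at 1 ug/ml, had none, and neither had SPI1 or NFE2. In all, 9 letter patterns were searched on both strands, named here with the share of 35116 promoter windows that held each. They were the PU.1 core GAGGAA (27.9%) and its extended form GAGGAAGT (2.59%), the C/EBP pattern TTGCNNAA (10.5%), the RUNX pattern TGTGGT (13.1%) and the NF-E2 and AP-1 core TGANTCA (7.71%). The others were the STAT pattern TTCNNNGAA (7.66%), the GFI1 pattern AAATCA (13.2%), the cyclic AMP element TGACGTCA (1.85%) and the TATA pattern TATAAA (11.5%). Every extended PU.1 match holds the PU.1 core. Capitals mark the matches. The CEBPA window is chr19:33302485-33302784 (minus strand), the CEBPB window shown is chr20:50190580-50190879 (plus strand, the nearer of 2 to the annotated gene body), and the CEBPE window is chr14:23119206-23119505 (minus strand).
CEBPA: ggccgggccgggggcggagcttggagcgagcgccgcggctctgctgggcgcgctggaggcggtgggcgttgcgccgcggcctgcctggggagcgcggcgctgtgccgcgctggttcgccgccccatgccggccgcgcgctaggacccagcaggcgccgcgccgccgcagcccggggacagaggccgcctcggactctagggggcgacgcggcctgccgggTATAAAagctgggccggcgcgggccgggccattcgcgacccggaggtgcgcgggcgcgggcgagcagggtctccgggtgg
CEBPB: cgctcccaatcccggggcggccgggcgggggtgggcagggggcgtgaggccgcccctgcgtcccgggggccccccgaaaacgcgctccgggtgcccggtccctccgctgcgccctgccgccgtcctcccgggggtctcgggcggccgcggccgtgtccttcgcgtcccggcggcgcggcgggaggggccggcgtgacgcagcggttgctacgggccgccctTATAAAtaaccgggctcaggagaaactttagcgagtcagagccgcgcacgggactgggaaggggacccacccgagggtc
CEBPE: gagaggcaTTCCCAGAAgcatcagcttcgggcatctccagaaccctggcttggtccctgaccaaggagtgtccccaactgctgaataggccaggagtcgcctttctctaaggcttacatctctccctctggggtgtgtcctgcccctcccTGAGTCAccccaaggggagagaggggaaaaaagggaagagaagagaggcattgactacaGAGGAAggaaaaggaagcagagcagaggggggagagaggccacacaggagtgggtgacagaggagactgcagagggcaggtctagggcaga
In the windows shown, CEBPA and CEBPB are both GC-rich, with 80.7% and 76.7% G or C. Each holds a TATA pattern, which begins at -30 and -29 from the start site. The other CEBPB window, with 77.0% G or C, holds none of the 9 patterns. CEBPE has 57.7%, near the median of 58.7% over all windows, and no TATA pattern. It holds a PU.1 core at -41, an NF-E2 and AP-1 core at -100, and a STAT pattern at -242. A match describes letters only.

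Summed over CEBPA, CEBPB, CEBPD and CEBPE, the C/EBP family had 309 ± 16.8 FPKM in B11 at 0 ug/ml, 224 ± 14.6 FPKM at 1 ug/ml and 201 ± 9.25 FPKM at 10 ug/ml. THP1 had 263 ± 12.95, 248 ± 16.1 and 241 ± 9.82 FPKM at the same doses (SD, n = 3 each). CEBPA held the largest share in every group, 65.6 to 68.0% on average in B11 and 73.6 to 77.2% in THP1. CEBPB held 5.49 ± 0.738%, 14.8 ± 0.901% and 8.88 ± 0.617% of the sum in B11 at 0, 1 and 10 ug/ml, against 4.91 ± 0.321%, 4.57 ± 0.503% and 5.47 ± 0.866% in THP1. The ratio of CEBPA to CEBPB within a library, which no scaling of the library can alter, was 12.3 ± 1.32, 4.45 ± 0.354 and 7.68 ± 0.580 in B11 at 0, 1 and 10 ug/ml. It was 15.02 ± 0.787, 16.8 ± 2.24 and 14.4 ± 2.38 in THP1. Ratios in B11 did not overlap between any pair of doses, and those of THP1 overlapped at all doses.

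**Figure D3:**
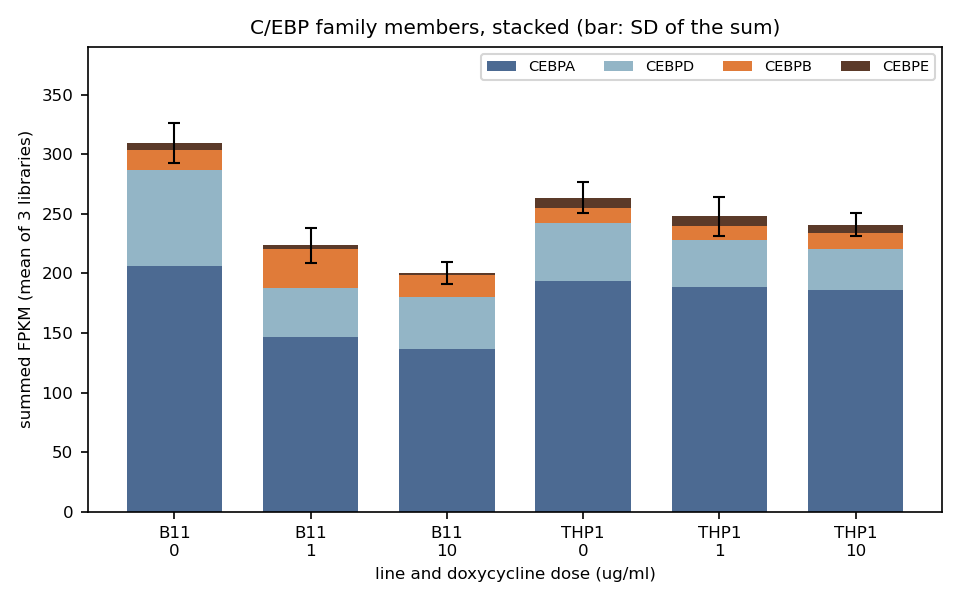
Mean FPKM of CEBPA, CEBPD, CEBPB and CEBPE stacked in each group, with B11 left of THP1, doses in ug/ml and the SD of the sum over 3 libraries as the error bar. The stack is highest in untreated B11, at 309 FPKM, and lowest in B11 at 10 ug/ml, at 201 FPKM, and the CEBPB layer is thickest in B11 at 1 ug/ml.

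IRF8, the interferon regulatory factor that directs progenitors towards monocytes and dendritic cells, separated the doses of B11. It lies at chr16:85898803-85922609 (plus strand, ENSG00000140968). The libraries of B11 had 558, 528 and 574 FPKM at 0 ug/ml, 491, 485 and 458 FPKM at 1 ug/ml, and 994, 981 and 1043 FPKM at 10 ug/ml. In THP1 they had 446, 442 and 454 FPKM, 475, 460 and 463 FPKM, and 486, 471 and 459 FPKM at 0, 1 and 10 ug/ml. The 3 libraries of B11 at 10 ug/ml lay far above the other 15, and B11 at 1 ug/ml overlapped with THP1. In B11, IRF8 at 10 ug/ml rose by 0.86 against 0 ug/ml (SE 0.04, adjusted p = 7.72e-10) and by 1.07 against 1 ug/ml (SE 0.04, adjusted p = 1.72e-09). In the comparison of 10 with 1 ug/ml, 217 of 17555 genes rose further. At 1 against 0 ug/ml it fell by 0.21 (SE 0.04, adjusted p = 0.00134), and with the libraries B and C at 1 ug/ml left out this fall was 0.17 and not called (adjusted p = 0.0667). In THP1 the change at 10 against 0 ug/ml was 0.08 (95% interval -0.02 to 0.17), and the response of B11 exceeded it by 0.78 (SE 0.06, adjusted p = 2.2e-07). The difference of responses at 1 ug/ml, -0.27 (SE 0.06, adjusted p = 0.00451), was lost with TPM scaling (adjusted p = 0.0805). Within libraries the ratio of IRF8 to SPI1 was 1.91 ± 0.0835, 1.93 ± 0.206 and 3.49 ± 0.205 in B11 at 0, 1 and 10 ug/ml, and 1.84 ± 0.0737, 1.95 ± 0.207 and 2.26 ± 0.106 in THP1.

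NFE2 fell most, and did so in steps. It encodes the large, tissue-restricted subunit of the factor NF-E2 and lies at chr12:54292111-54301121 (minus strand, ENSG00000123405). B11 had 85.6, 75.3 and 80.5 FPKM at 0 ug/ml, 14.2, 14.04 and 12.2 FPKM at 1 ug/ml, and 4.44, 4.58 and 3.71 FPKM at 10 ug/ml. THP1 had 41.3, 41.2 and 42.4 FPKM at 0 ug/ml, 43.7, 42.5 and 43.1 FPKM at 1 ug/ml, and 28.6, 29.9 and 26.3 FPKM at 10 ug/ml. Libraries of the 6 groups did not overlap in NFE2 for any pair of groups, and B11 held both the highest and the lowest level. The margin between THP1 at 0 and 1 ug/ml was narrow, 42.4 against 42.5 FPKM, and that change was not called. In B11 the change of NFE2 was -2.49 for 1 against 0 ug/ml (adjusted p = 1.91e-11), -1.47 for 10 against 1 ug/ml (adjusted p = 6.05e-08) and -3.96 for 10 against 0 ug/ml (adjusted p = 3.38e-13), with an SE of 0.09 each. The last is a 15.6-fold lower value on the scale with 1 FPKM added, and 33 of 17555 genes fell further. These falls were called in all 16 alternatives each.

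NFE2 also fell in THP1 at the high dose. The fall at 10 ug/ml was 0.54 against 0 ug/ml (SE 0.09, adjusted p = 0.00634) and 0.60 against 1 ug/ml (SE 0.09, adjusted p = 0.00945), with all 3 libraries at 10 ug/ml below the other 6. Fitted with those 2 groups only, neither was called (adjusted p = 0.0826 and 0.112), and the second was also lost without THP1 C at 10 ug/ml (adjusted p = 0.057). Subtracting the THP1 response of NFE2 from that of B11 left -3.41 for 10 against 0 ug/ml (adjusted p = 6.26e-11) and -2.54 for 1 against 0 ug/ml (adjusted p = 2.04e-09), with an SE of 0.12 each. Against THP1 at equal dose, NFE2 in B11 was higher at 0 ug/ml (difference 0.93, adjusted p = 3.96e-07) and lower at 1 ug/ml (-1.61, adjusted p = 5.34e-09) and 10 ug/ml (-2.48, adjusted p = 4.61e-11). NFE2 shares no exonic base with the overlapping AC078778.2 on the other strand, which reached at most 0.7 FPKM. Of 9 erythroid and megakaryocytic markers, ITGA2B and GP9 reached 1 FPKM and HBB and PF4 were at 0 in all libraries. Their summed level was 6.95 to 11.2 FPKM in B11 at 0 ug/ml, 5.10 to 13.3 FPKM at 1 ug/ml and 6.54 to 10.98 FPKM at 10 ug/ml, and 6.21 to 11.9 FPKM in THP1. ITGA2B averaged 7.93, 5.44 and 5.65 FPKM in B11 and 3.17, 3.89 and 2.01 FPKM in THP1 at 0, 1 and 10 ug/ml, and GP9 averaged 0.415, 2.23 and 2.22 FPKM in B11 and 5.40, 5.87 and 6.59 FPKM in THP1. Their part in the NFE2 values was not tested.

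GFI1, the repressor that restrains monocytic genes in granulocyte precursors, was the steadiest of the factors. It is at chr1:92474762-92486876 (minus strand, ENSG00000162676) and averaged 112 ± 6.39, 104 ± 5.31 and 101 ± 5.37 FPKM in B11 at 0, 1 and 10 ug/ml, against 109 ± 2.74, 108 ± 4.56 and 118 ± 2.69 FPKM in THP1 (SD, n = 3 each). No dose change of GFI1 was called in either line, with -0.15 (SE 0.06, adjusted p = 0.0553) at 10 against 0 ug/ml in B11 as the nearest. That fall was called in 2 of 16 alternatives. These were without B11 B at 0 ug/ml (-0.18, adjusted p = 0.0486) and without B11 A at 10 ug/ml (-0.19, adjusted p = 0.029). At 10 ug/ml GFI1 was lower in B11 than in THP1, with 107, 97.3 and 99.2 FPKM in B11 libraries against 116, 121 and 118 FPKM in THP1 libraries (difference -0.22, SE 0.06, adjusted p = 0.0106). The difference of responses at 10 against 0 ug/ml was -0.26 (SE 0.08, adjusted p = 0.0275). It was lost with TPM scaling (-0.20, adjusted p = 0.0975), without the intensity trend (adjusted p = 0.0727) and without any of 6 single libraries.

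RUNX1, the DNA-binding subunit of core-binding factor, spans chr21:34787801-36004667 (minus strand, ENSG00000159216). B11 libraries had 42.4, 28.7 and 41.2 FPKM at 0 ug/ml, 30.2, 32.3 and 36.7 FPKM at 1 ug/ml, and 25.7, 24.6 and 24.8 FPKM at 10 ug/ml. THP1 libraries had 62.6, 49.2 and 42.4 FPKM, 48.7, 51.0 and 41.6 FPKM, and 35.7, 47.8 and 55.9 FPKM at 0, 1 and 10 ug/ml. RUNX1 varied widely between replicates in untreated B11 and in THP1 at 0 and 10 ug/ml, and the B11 libraries at 10 ug/ml lay below all the others. RUNX1 in B11 fell by 0.54 at 10 against 0 ug/ml (SE 0.18, adjusted p = 0.0223), but was not called with TPM scaling (adjusted p = 0.0547) or without B11 A or C at 0 ug/ml, or B or C at 10 ug/ml (adjusted p between 0.0551 and 0.0912). At 10 ug/ml RUNX1 was lower in B11 than in THP1 (difference -0.84, SE 0.18, adjusted p = 0.00185). The differences at 0 ug/ml (-0.45, adjusted p = 0.0487) and 1 ug/ml (-0.50, adjusted p = 0.0461) were near the threshold and were lost without THP1 A (adjusted p = 0.209) or B11 B (adjusted p = 0.226) at 0 ug/ml and without THP1 B (adjusted p = 0.134) or B11 A (adjusted p = 0.137) at 1 ug/ml, among others. EZH2P1, a pseudogene on the same strand inside RUNX1 with no shared exonic base, averaged 3.57 to 11.6 FPKM.

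Neighbouring groups in the order of levels were often not distinct. They are named separate where the ranges of their 3 libraries did not overlap, which is not a test of a difference. For NFE2 all 6 groups were separate. THP1 at 0 and 1 ug/ml were so by a narrow margin (42.42 against 42.50 FPKM), with a limma change not called (0.05, adjusted p = 0.995). For SPI1, B11 at 0 and 10 ug/ml overlapped and stood above B11 at 1 ug/ml and THP1 at 0 and 1 ug/ml, which overlapped in turn, with THP1 at 10 ug/ml last and separate from THP1 at 1 ug/ml by a narrow margin. For CEBPA untreated B11 and the 3 THP1 groups overlapped in turn, above B11 at 1 ug/ml and then B11 at 10 ug/ml, each separate. The last 2 were apart by a narrow margin (138.5 against 138.1 FPKM), with a limma change not called (adjusted p = 0.271). CEBPB had B11 at 1 ug/ml on top and separate, and the other groups overlapped in turn. CEBPD had untreated B11 on top and separate, with the other groups overlapping in turn. In CEBPE the 3 THP1 groups and untreated B11 overlapped in turn, above B11 at 1 and 10 ug/ml, which overlapped. For IRF8 the order was B11 at 10 ug/ml, B11 at 0 ug/ml, then B11 at 1 ug/ml, THP1 at 10 ug/ml and THP1 at 1 ug/ml, which ran into each other, and THP1 at 0 ug/ml last. The limma change of IRF8 in THP1 at 1 against 0 ug/ml was not called (0.06, adjusted p = 0.964). Neighbouring groups of GFI1 overlapped throughout. For RUNX1 all neighbours overlapped except B11 at 10 ug/ml, which was last.

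Genes with profiles like those of the factors were sought among 10284 named protein-coding genes, by the root mean square difference of centred log2(FPKM + 1) over the 18 libraries. NFE2 was most like CXCR4, the receptor for the chemokine CXCL12, at 0.249. CXCR4 averaged 116, 21.7 and 9.96 FPKM in B11 and 58.7, 54.2 and 39.6 FPKM in THP1 at 0, 1 and 10 ug/ml. CACNA2D3, a calcium channel subunit, and CSF1R, the M-CSF receptor, followed at 0.312 and 0.350. IRF8 was most like TRIM13, a ubiquitin ligase of the endoplasmic reticulum, at 0.104, the smallest difference among the factors matched. The measure is not scaled to the range of group means, which was 1.17 log2 units for IRF8 and 3.96 for NFE2. TRIM13 averaged 30.2, 25.9 and 49.2 FPKM in B11 and 23.3, 22.0 and 23.1 FPKM in THP1. CEBPB was most like AJM1 (0.188), CEBPD like FAM117A (0.153) and CEBPE like ANPEP (0.176), the aminopeptidase CD13 of myeloid cells. SPI1, CEBPA, GFI1 and RUNX1 had under 1 log2 unit between their highest and lowest group means and were not matched.

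**Figure D4:**
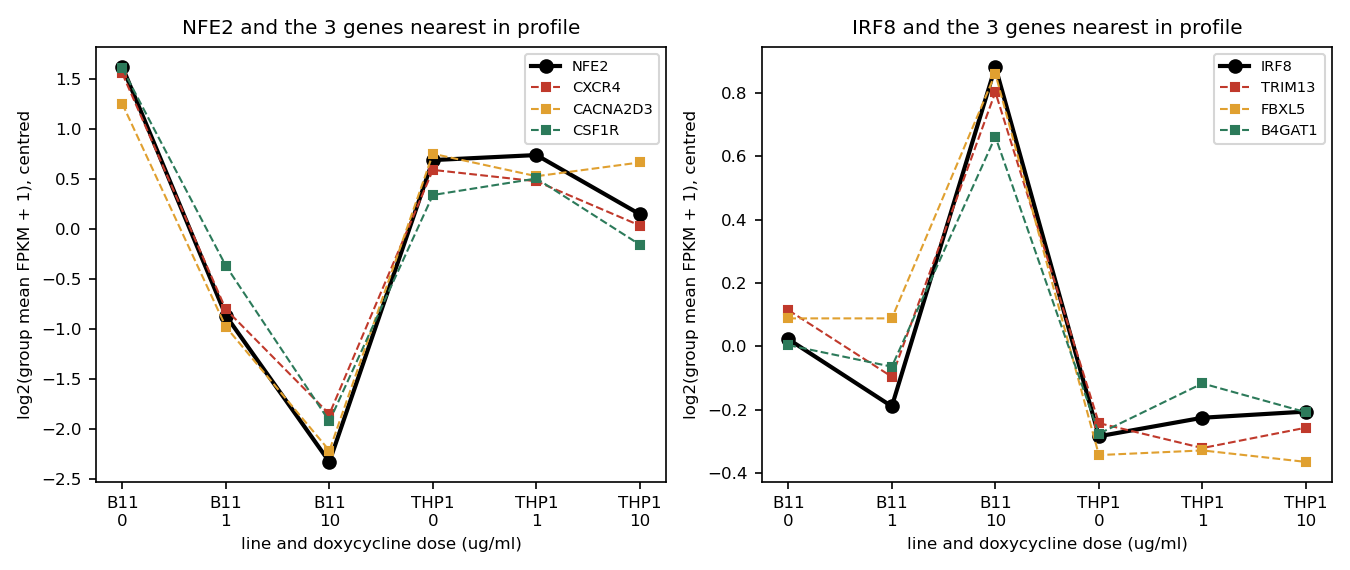
Profiles of NFE2 (left) and IRF8 (right) in black and of the 3 genes nearest to each (dashed), as log2 of the group mean FPKM plus 1, centred on each profile's mean, with B11 left of THP1 and doses in ug/ml. CXCR4, CACNA2D3 and CSF1R are lowest in B11 at 10 ug/ml, as is NFE2, and TRIM13, FBXL5 and B4GAT1 peak there, as does IRF8.

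Partner and cofactor genes of the 9 factors moved in both directions. Of 23 listed, 21 were tested. At 10 against 0 ug/ml in B11, 6 rose, 3 fell and 12 were not called, a share called close to the 42.8% of all genes, with a median change of 0.04 against -0.02 over all genes. BATF3, which partners IRF8 in dendritic cells, rose by 3.03 (SE 0.25, adjusted p = 1.38e-07), with 1.19 ± 0.902, 26.5 ± 0.914 and 16.2 ± 3.10 FPKM in B11 and 10.8 ± 0.994, 9.07 ± 2.73 and 18.5 ± 3.68 FPKM in THP1 at 0, 1 and 10 ug/ml. The small MAF gene MAFF, whose protein can pair with NFE2, rose by 2.20 (SE 0.17, adjusted p = 8.32e-08) and averaged 0.299, 3.15 and 5.04 FPKM in B11 at 0, 1 and 10 ug/ml. CBFB, the partner of RUNX1, rose by 0.66 (SE 0.11, adjusted p = 0.000174), and the deacetylase HDAC2 by 0.63 (SE 0.07, adjusted p = 2.84e-06). The 3 that fell were CREBBP, JUN and HDAC1, of which CREBBP and HDAC1 are named after their values were seen, because the group is small. The change of JUN at 10 against 0 ug/ml was -0.54 in B11 (adjusted p = 0.00202) and -0.85 in THP1 (adjusted p = 0.00321), the difference of responses was not called (0.31, adjusted p = 0.197), and JUN rose in B11 at 1 against 0 ug/ml (0.53, adjusted p = 0.00287). At 0 ug/ml B11 against THP1, 1 was higher (MAFG, by 1.03) and 7 were lower, with 47.1% of all genes called, among them JUN (-2.36), BATF3 (-2.50) and TRIB2 (-1.54), a pseudokinase that targets C/EBP proteins for degradation.

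Other transcription factors of blood cells also moved in both directions. Of 34 listed, 26 were tested. At 10 against 0 ug/ml in B11, 12 fell and 5 rose, where 21.3% of all genes fell and 21.6% rose, with a median change of -0.40 against -0.02 over all genes. KLF4, a factor of monocyte differentiation, fell by 1.86 (SE 0.16, adjusted p = 2.93e-07), IRF5 fell by 0.98 (SE 0.06, adjusted p = 4.08e-09) and ZEB2 fell by 0.89 (SE 0.10, adjusted p = 4.96e-06). In THP1 the change of KLF4 between the same doses also passed the test (-0.84, adjusted p = 0.0244), and the difference of responses was -1.02 (adjusted p = 0.00367). In B11 MYC rose by 0.67 (SE 0.06, adjusted p = 2.35e-07), with 70.0 ± 4.68, 112 ± 3.01 and 111 ± 0.987 FPKM in B11 and 138 ± 4.42, 134 ± 5.88 and 154 ± 6.76 FPKM in THP1 at 0, 1 and 10 ug/ml. The other 4 that rose were ID1, GATA2, KLF2 and VDR, also named after their values were seen. At 0 ug/ml 6 were higher and 8 lower in B11 than in THP1, where 47.1% of all genes were called, with HHEX (1.85) and RUNX2 (0.74) among the higher and MYC (-0.97) among the lower.

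Genes known to be activated by PU.1 or C/EBP factors in myeloid cells had the lowest median change of the 3 lists at 10 against 0 ug/ml in B11, a comparison of lists that was not tested. Of 34 listed, 31 were tested. In that comparison 19 fell and 5 rose, where 21.3% of all genes fell and 21.6% rose, with a median change of -0.96 against -0.02 over all genes. At 1 against 0 ug/ml 17 fell and 7 rose, where 17.3% of all genes fell and 19.8% rose, with a median of -0.59 against -0.01. CSF1R fell by 3.54 (SE 0.10, adjusted p = 2.43e-12), lysozyme (LYZ) fell by 3.23 (SE 0.11, adjusted p = 2.04e-11), the adaptor TYROBP fell by 2.12 (SE 0.07, adjusted p = 8.69e-12) and azurocidin (AZU1) fell by 1.39 (SE 0.05, adjusted p = 4.29e-11). The 5 that rose were ITGAM, G0S2, FCGR1A, NCF1 and FCER1G, likewise named after their values were seen. NCF1 has near-identical pseudogenes, so its value is uncertain. In THP1 at 10 against 0 ug/ml, 1 rose and 3 fell, CSF1R among them (-0.50, adjusted p = 0.032), where 1.02% of all genes were called. At 0 ug/ml 15 were higher and 11 lower in B11 than in THP1, where 23.5% of all genes were higher and 23.6% lower, with ELANE (1.76), CD68 (2.17) and TYROBP (1.78) among the higher and CD14 (-2.75) among the lower. Whether these genes followed any of the 9 factors was not tested. The list shares CD33, ITGAM, LYZ, CD68, CSF1R, FCGR1A and CD14 with the monocytic and myeloid markers above, so these are not separate observations. CSF1R is also one of the genes most like NFE2.

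**Figure D5:**
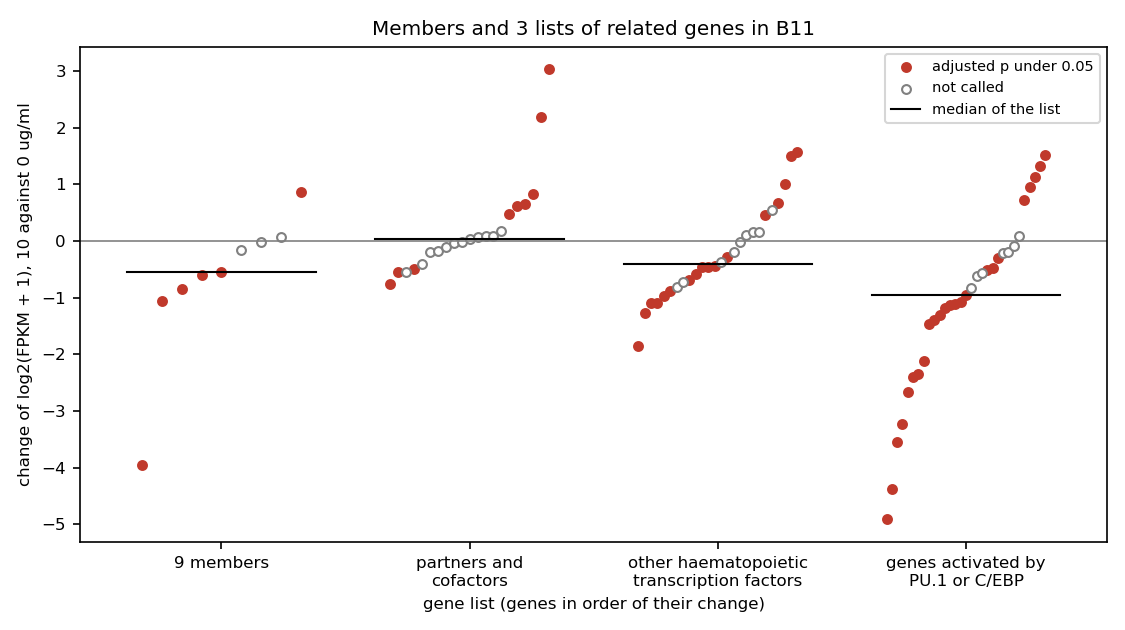
Change in log2(FPKM + 1) at 10 against 0 ug/ml in B11 for the 9 factors and for every tested gene of the 3 lists, each in order of its change. Filled points had an adjusted p under 0.05 and horizontal bars are medians. The median of the genes activated by PU.1 or C/EBP factors is -0.96, and that of the partners is 0.04.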

How the data were processed

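RNA of 18 plates was sequenced. The deposited values carry no unit in the header and were read as FPKM, from the tool named and from their fractional, non-negative values. Their sums per library ran from 1.009 M (THP1 C at 10 ug/ml) to 1.201 M (B11 C at 0 ug/ml) and did not decide the unit. Per the submitters' processing notes, the authors aligned reads with HISAT2 to GRCh38 and made the deposited values with Cuffnorm. Versions, annotation, strand and scaling option were not given in the sources used here. Symbols, coordinates and exon overlaps came from GENCODE release 29, which named 57047 of 60658 IDs.

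A gene was kept if 3 or more of the 18 libraries had 1 FPKM or more. Means of 6 groups were fitted on log2(FPKM + 1) in 1 limma 3.58.1 model (R 4.3.3, intensity trend, 12 residual degrees of freedom), which understates changes of low genes. P-values were adjusted by Benjamini-Hochberg over all genes within each of 12 comparisons. The labels give no batch. Depth was estimated from the smallest values and did not enter the fit. The fit was tested on simulated data.

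The members and the lists were chosen with earlier results of these data known, so no list count is independent support. Genes named from a list are the up to 4 with the smallest p among those called, in B11 at 10 against 0 ug/ml and in B11 against THP1 at 0 ug/ml. Like genes needed a highest group mean of 5 FPKM. Alternatives covered pseudocount, filter, scaling, trend, libraries fitted, replicate block and libraries left out. Figures were drawn with matplotlib 3.10.9.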

Additional observations from a re-analysis of the deposited data

Results flagged for a closer look

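Several of the 9 factors responded to doxycycline differently in B11 and in THP1, by the limma test of the difference itself (log2 change in B11 minus log2 change in THP1, adjusted p under 0.05). At 10 against 0 ug/ml, where 29.8% of all genes passed, the difference was -3.41 for NFE2, -0.83 for CEBPE, -0.53 for CEBPA, -0.26 for GFI1 and 0.78 for IRF8. At 1 against 0 ug/ml, where 25.9% passed, it was -2.54 for NFE2, -0.79 for CEBPE, -0.66 for CEBPD, -0.45 for CEBPA, -0.27 for IRF8 and 1.11 for CEBPB. At 10 against 1 ug/ml, where 4.64% passed, it was -0.87 for NFE2, -1.05 for CEBPB, 1.05 for IRF8 and 0.42 for SPI1. RUNX1 passed in none of the 3. These differences share the untreated or the 1 ug/ml libraries with each other. The calls for GFI1, CEBPD and SPI1 and those for IRF8 at 1 against 0 ug/ml and CEBPB at 10 against 1 ug/ml were lost in 1 or more alternatives.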

How the results depend on the processing

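Of 1890 values of the 9 factors under alternatives, 1800 kept their side of the threshold, 84 lost a call and 6 gained one. No called change reversed, and 46 values that were not called changed sign, in 20 of 108 pairs of factor and comparison. In 87 of the 108 pairs no alternative changed the call. With only the groups compared in the fit, 0 factors were called in THP1 at 10 against 0 ug/ml and 0 at 10 against 1 ug/ml, both against 1 in the fit of all groups. Leaving out single libraries gave 0 to 1 factors in THP1 at 10 against 1 ug/ml and 4 to 7 in B11 against THP1 at 0 ug/ml. With B and C of the B11 libraries at 1 ug/ml left out, which leaves 1 library assumed to vary like the other groups, 2 factors in place of 4 passed in the difference of responses at 10 against 1 ug/ml. SPI1 in that difference (0.42, adjusted p = 0.0444) was lost in 15 of 22 alternatives. TPM scaling moved the median of all genes by -0.10 in B11 against THP1 at 0 ug/ml. The causes were not tested. Replicate letters are shared by all groups, but same-letter libraries did not deviate together (45 pairs, r between -0.07 and 0.09). With the replicate block RUNX1 in B11 against THP1 was -0.45 (adjusted p = 0.0669) at 0 ug/ml and -0.50 (adjusted p = 0.0655) at 1 ug/ml, and SPI1 in the difference at 10 against 1 ug/ml was 0.42 (adjusted p = 0.0623), and no other call changed. Depth limits CEBPE most, at an estimated 38 fragments in its lowest library.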
